A study of Mus musculus with 3 samples.

Results

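The 41 genes described here are the small nucleolar RNA (snoRNA) and small Cajal body RNA (scaRNA) genes that carried counts in RNA of mouse macrophage nuclei. A gene was a member where its transcript was typed snoRNA or scaRNA and its expected count, a count in which a model shares ambiguous reads out between genes, averaged at least 10 over the libraries. By this rule 41 of 1558 annotated snoRNA and scaRNA genes (2.63%) were members, among 15876 of 55536 annotated genes of any kind that reached the same mean. Because members were selected on their mean expected count, their levels are a description and no test was made on them. Of the 41, 33 are typed snoRNA and 8 scaRNA.

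RNA came from the nuclear fraction of C57BL/6J macrophages, phagocytes that had been derived in culture from bone marrow. A further note in the labels calls the fraction nucleoplasmic. Lipid A, the portion of lipopolysaccharide that Tlr4 senses, had been added at 100 ng/ml for 15 min, and total RNA was sequenced after removal of ribosomal RNA. The 3 libraries, replicates 1 to 3, form 1 group and no untreated sample was analysed here, so the libraries can be compared with each other but not with another condition. All share 1 donor entry, and replicate 2 was made from 500 ng of RNA against 1000 ng for the others.

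SnoRNAs are non-coding RNAs that guide chemical modification of ribosomal RNA in the nucleolus. C/D RNAs, named for 2 short sequence boxes, guide ribose methylation by fibrillarin, and H/ACA RNAs guide pseudouridylation by dyskerin. ScaRNAs do the same for spliceosomal snRNAs in Cajal bodies. Most mammalian snoRNAs are cut out of the introns of other genes, called host genes, and a few, such as U3, act in cleavage of the ribosomal RNA precursor rather than in its modification.

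The RNAs on which the results turn are shown 5′ to 3′ as GENCODE M21 lists them (GRCm38). Capitals mark the C box TGATGA in the first 20 bases and the D box CTGA in the last 20 bases, or an ACA that starts at base 6 counted from the end. The first 4 RNAs hold both C/D boxes: Gm22009, the most abundant member and shown by its ends, Snord15b, a guide for ribosomal RNA, and Gm25835 and Gm22486, which differed widely between libraries.
Gm22009 (first 100 bases): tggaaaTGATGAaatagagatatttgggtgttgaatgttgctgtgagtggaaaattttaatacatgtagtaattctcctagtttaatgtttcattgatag
Gm22009 (last 100 bases): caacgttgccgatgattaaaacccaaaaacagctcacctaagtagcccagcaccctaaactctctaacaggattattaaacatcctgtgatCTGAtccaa
Snord15b: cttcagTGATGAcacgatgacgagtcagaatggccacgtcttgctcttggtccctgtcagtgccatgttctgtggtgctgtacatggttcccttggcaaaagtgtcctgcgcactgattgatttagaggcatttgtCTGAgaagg
Gm25835: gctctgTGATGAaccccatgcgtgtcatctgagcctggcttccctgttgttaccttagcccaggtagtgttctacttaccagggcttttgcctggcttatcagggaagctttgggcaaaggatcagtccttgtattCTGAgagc
Gm22486: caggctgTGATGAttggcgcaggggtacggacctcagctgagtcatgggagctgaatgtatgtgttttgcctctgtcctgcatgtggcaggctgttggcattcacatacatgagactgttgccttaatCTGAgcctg
The next 6 end in the ACA pattern. They are the Snora73 copies, known as U17, with a relative in Rpsa, then Gm22988 and its near copy Gm25291, and Gm25776, which was among the members that differed most between libraries.
Snora73a: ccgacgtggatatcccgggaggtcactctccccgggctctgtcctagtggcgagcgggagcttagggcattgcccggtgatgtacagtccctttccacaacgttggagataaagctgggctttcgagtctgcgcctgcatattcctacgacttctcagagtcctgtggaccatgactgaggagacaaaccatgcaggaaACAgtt
Snora73b: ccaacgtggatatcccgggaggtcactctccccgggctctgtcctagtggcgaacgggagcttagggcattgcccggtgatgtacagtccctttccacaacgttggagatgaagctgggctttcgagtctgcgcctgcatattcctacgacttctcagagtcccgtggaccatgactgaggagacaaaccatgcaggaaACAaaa
Gm26448: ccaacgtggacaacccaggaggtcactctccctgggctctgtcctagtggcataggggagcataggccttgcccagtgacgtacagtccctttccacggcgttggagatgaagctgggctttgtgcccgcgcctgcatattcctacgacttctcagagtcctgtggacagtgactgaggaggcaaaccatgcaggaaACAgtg
Gm22988: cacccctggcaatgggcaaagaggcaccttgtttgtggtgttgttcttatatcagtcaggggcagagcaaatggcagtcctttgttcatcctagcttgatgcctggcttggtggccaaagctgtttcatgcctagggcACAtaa
Gm25291: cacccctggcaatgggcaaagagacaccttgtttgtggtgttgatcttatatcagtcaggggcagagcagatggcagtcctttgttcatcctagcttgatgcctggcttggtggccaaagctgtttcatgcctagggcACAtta
Gm25776: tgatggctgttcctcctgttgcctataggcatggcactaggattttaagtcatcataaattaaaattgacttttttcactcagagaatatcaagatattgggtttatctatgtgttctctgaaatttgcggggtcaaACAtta
The last 3 have a D box. Rnu3b1 stands for 4 identical U3 copies, Snord22 is the shortest member, and Snord104, at 70 nt, is no member and shows a typical short C/D RNA. Its name was chosen after its values were seen.
Rnu3b1: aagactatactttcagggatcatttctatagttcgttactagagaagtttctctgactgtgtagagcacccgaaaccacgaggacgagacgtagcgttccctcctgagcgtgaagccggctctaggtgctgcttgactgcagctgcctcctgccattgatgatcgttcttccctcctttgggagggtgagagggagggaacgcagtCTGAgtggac
Snord22: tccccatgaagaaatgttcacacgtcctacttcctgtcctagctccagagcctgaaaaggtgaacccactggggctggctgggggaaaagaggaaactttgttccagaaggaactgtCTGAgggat
Snord104: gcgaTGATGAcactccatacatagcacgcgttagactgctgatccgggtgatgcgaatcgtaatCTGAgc

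Boxes were searched as letters on the transcript strand only. Both C and D boxes were found in 10 of 41 members (24.4%), against 304 of 1517 other annotated snoRNA and scaRNA genes (20.0%). The ACA pattern was found in 16 members (39.0%), against 285 of those others (18.8%). Among the others of at least 126 nt, the length of the shortest member, 27.1% held the ACA pattern and 0.122% both C/D boxes. Of the 4 members named Snord, 3 held both boxes and all 4 a D box; Snord22 lacked TGATGA in that window. Of the 5 members named Snora, 3 held the ACA pattern. For comparison, 68 of 98 annotated Snord genes held both C/D boxes and 35 of 42 annotated Snora genes the ACA pattern. A match describes the letters and is not a shown protein site.

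By symbol, members comprised 4 C/D genes (Snord) of 98 annotated, 5 H/ACA genes (Snora) of 42, 4 genes named Scarna of 9, and 28 genes with other symbols of 1409. The last group held 21 genes with provisional Gm symbols, 6 entries for U3 and 1 snoRNA entry that carries the symbol Mir1949. It has no class by symbol, although 5 of its genes are typed scaRNA. Members were long for their kind. They spanned 126 to 414 nt with a median of 178 nt, while the median of all 1558 annotated genes was 128 nt and that of Snord genes 84 nt.

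The length of a gene went with whether it had counts. None of the 463 annotated genes of up to 100 nt and none of the 236 genes of 101 to 125 nt was a member. From 126 to 150 nt, 19 of 795 genes (2.39%) were members, from 151 to 200 nt 4 of 26 (15.4%) and above 200 nt 18 of 38 (47.4%). In all, 1417 of the 1558 genes had 0 counts in every library. The gene tables give each gene an effective length, the number of positions from which a fragment could start, and this was 0 for annotated snoRNA and scaRNA genes of up to 129 nt in replicate 1, 131 nt in replicate 2 and 119 nt in replicate 3. It was 0 for 890, 1046 and 592 genes in replicates 1 to 3. The fragments behind these values averaged 228, 222 and 187 nt in replicates 1 to 3, against a size range of 250 to 400 in the labels.

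A second deposited table, which was made by another method directly from the reads, held estimated counts for shorter genes. There, 219 of the 1558 genes (14.1%) averaged at least 10 estimated counts, among them 40 of the 41 members. It reached that mean for 40 genes of up to 100 nt, 29 of 101 to 125 nt and 122 of 126 to 150 nt, against 0, 0 and 19 in the gene table. Above 200 nt both tables had 18 such genes, 17 of them shared. Up to 150 nt the tables thus gave different sets of genes that reached the mean, and above 200 nt nearly the same set. The counts of such long genes could still differ. Snord17 (238 nt) had 300, 120 and 409 expected counts in replicates 1 to 3, against 634, 520 and 648 estimated counts.

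**Figure D1:**
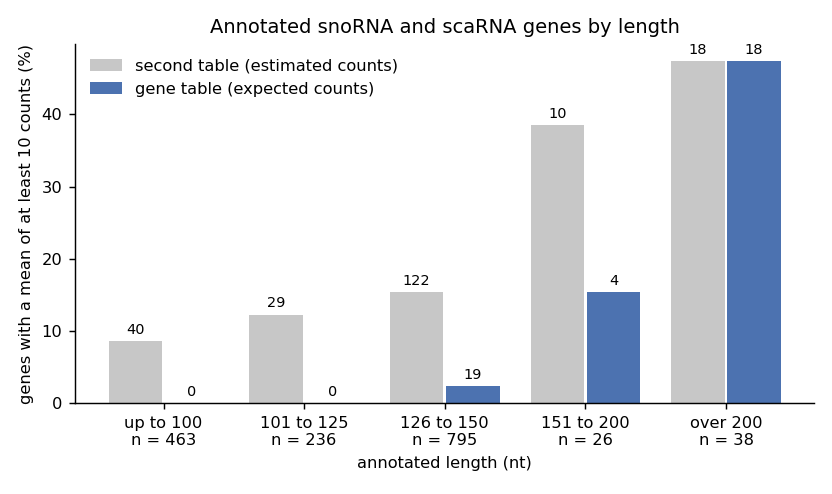
Share of annotated snoRNA and scaRNA genes with a mean of at least 10 counts (vertical axis, %) in 5 length classes (horizontal axis, nt, with the number of genes), in the second table (grey, estimated counts) and the gene table (blue, expected counts); numbers on the bars are genes. Up to 125 nt the gene table has none and the second table has 40 and 29; above 200 nt both have 18.

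Snord104 showed the difference for short genes most plainly among named C/D RNAs. It had 131, 52 and 100 estimated counts in replicates 1 to 3 of the second table, against 0 expected counts in every library. Snord83b (94 nt) had 93, 44 and 63 estimated counts, Snord71 (85 nt) 51, 71 and 46, and Snord89 (110 nt) 53, 32 and 76, each against 0. Other short RNAs were low in both tables. The Snord32a, Snord33, Snord34 and Snord35a genes, which lie in ribosomal protein genes, had at most 18 estimated counts in any library. All 17 annotated Snord116 genes, known from the imprinted Prader-Willi region and from neurons, had 0 counts in both tables. These names were chosen after their values were seen.

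All members together held 0.179%, 0.142% and 0.250% of the expected counts of annotated genes in replicates 1 to 3, a mean of 0.190% ± 0.0549 (SD, n = 3). The total behind these shares was 18516063, 17345644 and 20947006 counts. Genes with other symbols held 0.125% ± 0.0342 and Scarna genes 0.0561% ± 0.0206. The H/ACA genes held 0.00577% ± 0.00487 and the C/D genes 0.00388% ± 0.00284 (SD, n = 3 for each). With 1 library left out these means ranged from 0.00322% (without replicate 3) to 0.00808% (without replicate 2) for H/ACA and from 0.00238% to 0.00521% for C/D genes, with the same libraries at the ends. Members typed scaRNA, 8 genes in all, took 64.2%, 79.1% and 62.3% of the member counts in replicates 1 to 3. Counting in TPM, which divides by the effective length, members made up 3.46%, 3.17% and 5.75% of the total. Gm26447 and Snord22, listed at 0 TPM in replicates 1 and 2, account for part of the replicate 3 value, and the other 39 members made up 3.53% there. In bulk RNA, fewer copies per cell and fewer cells that hold an RNA cannot be told apart.

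Gm22009, typed scaRNA and 343 nt long, lies in an intron of Kpna4, an importin gene, at chr3:69085105-69085447 on the minus strand. It had 14143, 16025 and 23805 counts in replicates 1 to 3, or 941 ± 187 CPM (the count scaled to the library's total over annotated genes, SD, n = 3). It held 42.7%, 65.0% and 45.4% of the member counts. Per kilobase it stood at 2745 ± 545 CPM, ahead of Scarna10 at 919 ± 358 CPM per kb. Without it, the other 40 members held 0.103%, 0.0497% and 0.136% of counts in replicates 1 to 3.

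Scarna10 and Scarna2 followed. Scarna10 (325 nt), which overlaps an exon of the condensin gene Ncapd2, had 7067, 2869 and 7302 counts in replicates 1 to 3. Scarna2 (414 nt), the longest member and without a host gene, had 4378, 2122 and 5173 counts. In both, replicate 2 was the low library and replicates 1 and 3 lay close together. Scarna13 (275 nt), in the non-coding host Snhg10, had 613, 423 and 1152 counts, and Scarna6 (265 nt), in the autophagy gene Atg16l1, had 489, 189 and 686. Gm25395 (272 nt), also typed scaRNA and also in Atg16l1, had 1597, 682 and 1651 counts. Per kilobase Gm25395 stood at 250.5 ± 92.7 CPM and Scarna6 at 88.1 ± 42.4 CPM, so the 2 scaRNAs of the same host differed beyond their SDs.

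**Figure D2:**
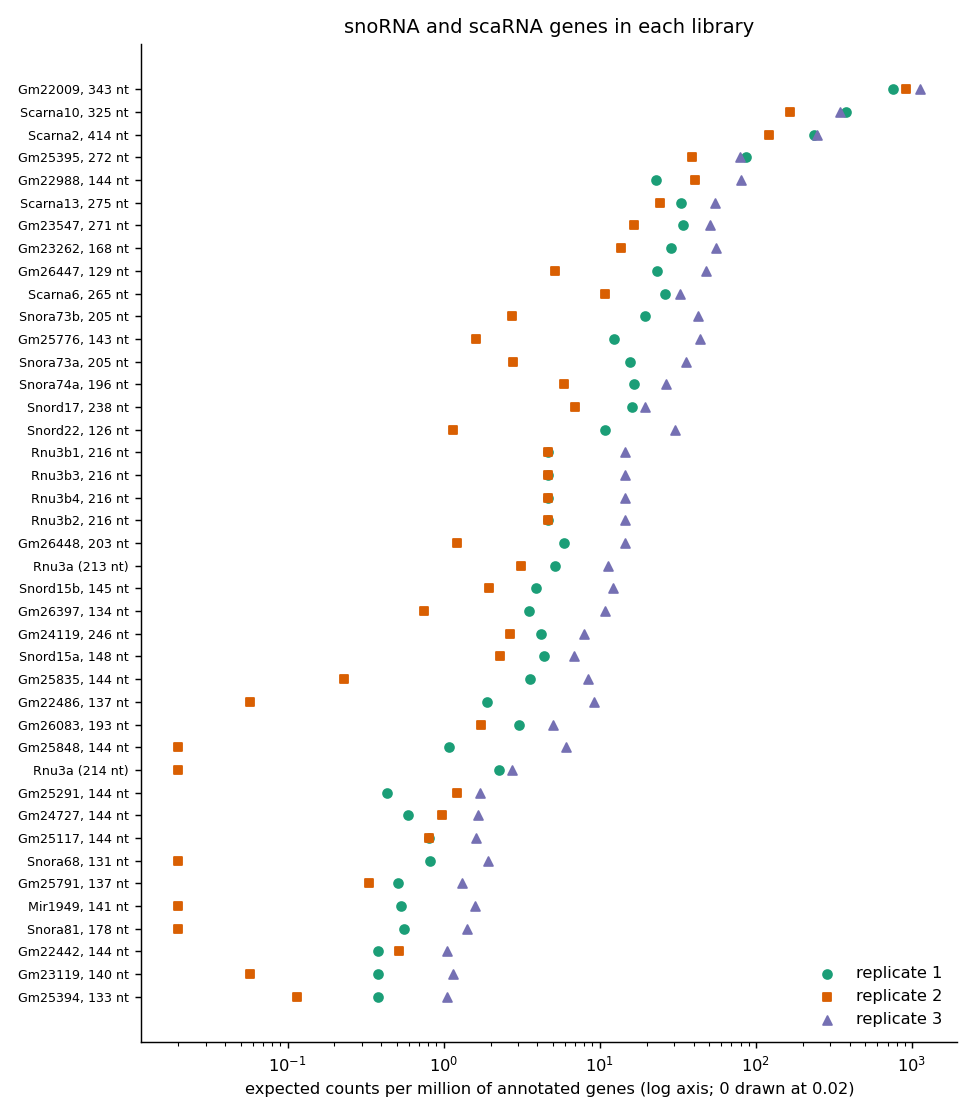
Level of each of the 41 members (rows, highest mean at the top, with length in nt) in CPM (expected counts of the gene table over those of annotated genes) on a log axis, 1 point per library; a count of 0 is drawn at 0.02. Gm22009 leads at 941 CPM on average; the replicate 2 points (squares) lie left of the others for most members, and the triangles of replicate 3 lie furthest right for 39 of 41.

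Among C/D genes, Snord22 (126 nt, in Snhg1), which in frog oocytes is needed for small subunit ribosomal RNA, had 199, 19.9 and 634 counts in replicates 1 to 3. Snord17 (238 nt, in Snx5) had 300, 120 and 409 counts. Their libraries kept the same order, with replicate 2 lowest, but Snord22 spanned a far wider range. The Snord15b and Snord15a genes, both within the ribosomal protein gene Rps3, had 72.4, 33.8 and 254 counts and 82, 40 and 144 counts. Per kilobase these were 41.4 ± 37.3 and 30.7 ± 15.4 CPM (SD, n = 3), a difference within the spread of the libraries.

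Among H/ACA genes, Snora73b and Snora73a, the U17 RNAs that act in ribosomal RNA cleavage rather than pseudouridylation, led. Both lie in introns of Rcc1, which shares the locus with the non-coding host Snhg3, and both have an antisense gene, Gm17300. Snora73b had 359, 47.5 and 889 counts and Snora73a 289, 48.6 and 755 in replicates 1 to 3. Snora74a had 307, 103 and 560 counts. The remaining 2 were low and had no count in replicate 2: Snora68 had 15.3, 0 and 40.5 counts, and Snora81, in Eif4a2, had 10.3, 0 and 29.8. By counting error alone, a count of 0 in replicate 2 allows a level of up to 0.173 CPM, the value of 3 counts. This floor need not bound these genes. Snora68 had an effective length of 0 in replicate 2, and Snora81 had 14.8 estimated counts there in the second table.

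Genes with other symbols held several abundant snoRNAs. Gm22988, in the helicase gene Eif4a1, had 424, 707 and 1694 counts, Gm23262, in Eif4g2, 529, 236 and 1169.5 counts, and Gm26447, in Eif4a2, 432, 89.8 and 1005. Gm23547, in the prohibitin gene Phb2, had 632, 289.9 and 1068 counts. Replicate 3 was highest in all 4, whereas the lowest library was replicate 1 for Gm22988 and replicate 2 for the others. Gm25776, in the general transcription factor gene Gtf2a1, had 228, 28 and 917 counts. Lower members of the group included Gm26397 in Tomm20, with 65, 13 and 227 counts, Gm24119 in Slc25a3, with 78, 46 and 167, and Gm26083 in Snhg20, with 56.1, 30.3 and 105. Gm25791 in Taf1d had 9.5, 5.74 and 27.4 counts, and the Mir1949 entry had 9.89, 0 and 33.4.

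Close to the count minimum, the 3 lowest members were Gm22442 with 7, 9 and 22 counts (mean 12.7), Gm23119 with 7, 1 and 24 (mean 10.7) and Gm25394 with 7, 2 and 22 (mean 10.3). Just outside stood Gm22422 with 9, 2 and 15 counts (mean 8.67), Gm24336 with 4, 8 and 14 (mean 8.67) and Snora23 with 14, 2 and 9 (mean 8.33). All 6 had their highest or second highest count in replicate 3. In the second table Gm22442 and Gm24336 had 377, 231 and 520 and 335, 287 and 564 estimated counts, so that these 2, on either side of the minimum here, had like values there.

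Several members are near copies, and reads could be divided among them by the model that made the counts. Gm22988 and 3 relatives of the same length, Gm25291, Gm24727 and Gm25117, shared 88.9% to 97.2% of bases. Gm22988 carried nearly all of their counts: Gm25291, in Sec24a, had 8, 21 and 36, Gm24727, in Gsr, 11, 17 and 35, and Gm25117, in Nap1l1, 15, 14 and 34. The family summed to 458, 759 and 1799 counts in replicates 1 to 3. Snora73a and Snora73b were 96.6% identical and Gm26448, in Rpsa, 87.8% identical to both, with 109, 21 and 304 counts of its own and a family sum of 757, 117 and 1948. Gm25848, in Fbxo45, was 89.6% identical to Gm25776 and had 20, 0 and 127 counts. In each of these families the summed counts were highest in replicate 3, as were those of the single genes.

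U3, the C/D RNA that base-pairs with the ribosomal RNA precursor to direct its cleavage, appeared as 6 entries. The genes Rnu3b1, Rnu3b2, Rnu3b3 and Rnu3b4 lie in introns of Tex14 on chromosome 11 and are identical in sequence. Each received the same 86.8, 81.5 and 305.5 counts in replicates 1 to 3. The Rnu3a entries of 213 and 214 nt start at the same base of chromosome 10 and so are the same locus annotated under separate identifiers; they had 96.0, 54 and 237 counts and 42.0, 0 and 57.9 counts. The model's own posterior SD was 37.2% to 91.1% of the posterior mean for these 6 entries, so their separate levels are uncertain and the sum is the firmer value. U3 summed to 485, 380.0 and 1517 counts, of which replicate 3 held the most. The second table put the sum at 1873, 1093 and 3171 estimated counts and gave the 213 nt entry of Rnu3a 0 in every library.

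Besides U3, Snora73a, Snora73b and Snord22, the listed snoRNAs known for ribosomal RNA cleavage were nearly absent from the gene table. Snord118, known as U8, had 65, 32 and 43 estimated counts in the second table, against 0, 0 and 1 expected counts. Snord13 had 23, 10 and 17 estimated counts, against 0 expected counts in every library. The Snord14 genes, known as U14, had at most 4.18 estimated counts in any library and 0 expected counts. Snord13 is 104 nt long and the Snord14 genes 86 to 90 nt, lengths at which the effective length was 0 in every library. Snord3a is not a symbol of this annotation, in which U3 carries the Rnu3 symbols.

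The order of the libraries was compared between members and all genes. For each gene, log2 CPM scaled with edgeR's TMM factors was compared between a library and the mean of the other 2. On this scale all 41 members were above both other libraries in replicate 3, where 31.9% of the 15876 genes with a mean of at least 10 were. Of the 41, 7 averaged under 10 counts over replicates 1 and 2 and so had to be high in replicate 3: Snora68, Snora81, the Mir1949 entry, Gm25791, Gm22442, Gm23119 and Gm25394. The other 34 were also highest in replicate 3. The median member was 1.79 log2 units above the others in replicate 3, 1.39 below them in replicate 2 (a deviation of -1.39) and 0.08 above them in replicate 1. The 1.79 is the value shared by the identical Rnu3b genes. Without the U3 entries the median deviation was 1.60 in replicate 3, -1.58 in replicate 2 and 0.25 in replicate 1. The medians over all 15876 genes were 0.00 in replicate 3, 0.00 in replicate 2 and 0.02 in replicate 1. With library totals and no TMM factors, which moved the median of all genes to -0.18 in replicate 3 and 0.15 in replicate 1, 39 of 41 members were highest in replicate 3, against 19.7% of all genes. Scarna10 and Gm25395 were highest in replicate 1, as were 46.5% of all genes. These orders are of counts that are not divided by effective length. For Gm22009 that length was 121.8, 125.7 and 159.4 in replicates 1 to 3. In TPM not every member was highest in replicate 3. Gm22009 stood at 4582, 6122 and 4636 TPM and Scarna10 at 2636, 1264 and 1594. Snord15b, at 1048, 680 and 1168 TPM, was highest there. Members other than Gm26447 and Snord22 together made up 3.46%, 3.17% and 3.53% of TPM.

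At a stricter limit of 2-fold from both other libraries, 27 of 41 members were above in replicate 3, against 1.55% of all genes, and none was below (1.39% of all genes). In replicate 2, 21 of 41 members were at least 2-fold below both others, against 2.22% of all genes, and none was above (0.857% of all genes). In replicate 1 a single member, Gm25291, was at least 2-fold below (3.22% of all genes) and none was at least 2-fold above (4.86%). Leaving out the 7 members named above, 20 of 34 were 2-fold above in replicate 3 and 16 of 34 were 2-fold below in replicate 2. Of the 29 members with a mean of at least 50 counts, 18 were above in replicate 3 and 14 below in replicate 2. Without the U3 entries, 22 of 35 were above in replicate 3 and 20 of 35 below in replicate 2. The order replicate 3, then 1, then 2 held for 31 members, against 14% of all genes. The other 10 had replicate 1 lowest: Gm22009, Gm22988 with its relatives Gm25291, Gm24727 and Gm25117, the 4 Rnu3b genes and Gm22442. These counts describe 3 libraries of the same condition and not an effect of treatment.

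By class, the deviation of the median gene in replicate 3 was 1.76 for C/D, 2.70 for H/ACA, 0.92 for Scarna and 1.79 for other symbols. The 1.79 is that of the identical Rnu3b genes. In replicate 2 the deviation of the median gene was -1.59 for C/D, -3.25 for H/ACA, -1.10 for Scarna and -1.24 for other symbols. The H/ACA value in replicate 2 is that of Snora81, which had 0 counts there, so the prior count sets it. Of the 5 H/ACA genes, 2, Snora68 and Snora81, had 0 counts in replicate 2 and would not have reached the minimum without replicate 3. The median SD of log2 CPM over the libraries was 2.01 for H/ACA, 1.11 for C/D and 0.68 for Scarna genes. It was 1.04 for all members, the value of the Rnu3b genes, and 0.32 for all genes. Without replicate 2 the median SD was 0.97 for H/ACA, 0.89 for C/D, 0.28 for Scarna genes and 1.04 for other symbols. H/ACA genes then no longer exceeded the other symbols.

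The furthest in replicate 3 were Gm25848 and Gm22486. Gm22486, at the coordinates that RefSeq gives to Snord94 and in the host Ptcd3, had 35, 1 and 193 counts in replicates 1 to 3. Gm25835, in Eif4a1, had 66, 4 and 176 counts. In replicate 2 both had at most 4 counts, against 35 or more in each other library. For genes with 0 to 3 counts in a library the fitted difference depends on the prior count, so the counts themselves are given. Gm22009 was the member whose libraries differed least, with an SD of log2 CPM of 0.39, a deviation of 0.61 in replicate 3 and one of -0.05 in replicate 2.

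Length went with the size of the deviation. The 19 members under 150 nt had a median deviation of 2.29 in replicate 3 and -2.28 in replicate 2, and the 22 of at least 150 nt one of 1.62 and -1.24. The shorter members include 6 of the 7 that would not have reached the count minimum without replicate 3. Across the 41 members, Spearman's rank correlation of length with deviation was -0.61 in replicate 3, 0.42 in replicate 2 and -0.13 in replicate 1; the members share their libraries, so this is a description. The 225 other genes of 126 to 414 nt with a mean of at least 10 had medians of 0.44 in replicate 3 and -0.37 in replicate 2. Only 2 of them were under 150 nt, and their medians were 2.94 in replicate 3 and -2.65 in replicate 2. Of the 225, 36 exceeded both others 2-fold in replicate 3, against 1.55% of all genes. In replicate 2, 29 lay 2-fold below both others, against 2.22% of all genes. The mean fragment was shortest in replicate 3 (187 nt) and the input RNA least in replicate 2 (500 ng); their part in these differences was not tested.

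**Figure D3:**
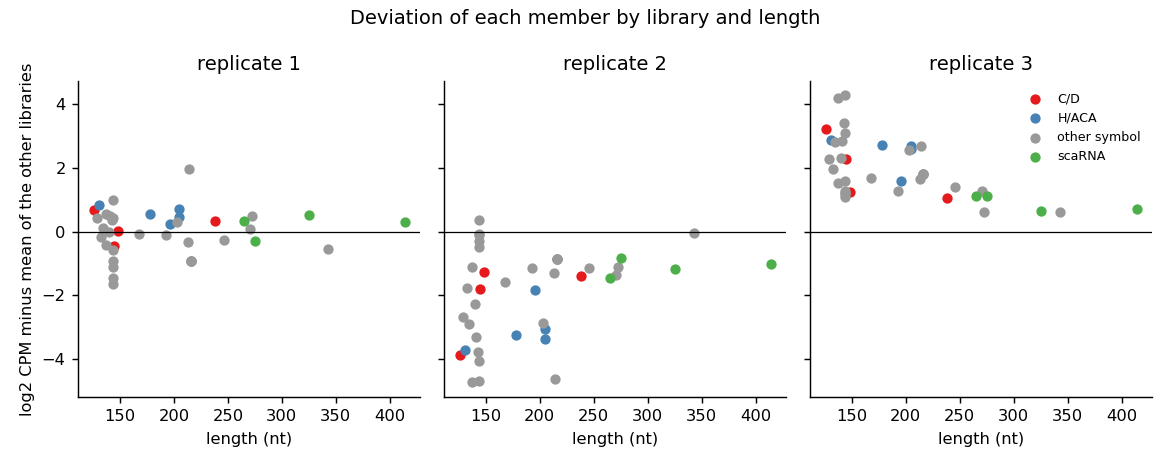
Deviation of each of the 41 members (vertical axis, log2 CPM minus the mean of the other libraries) against its length (horizontal axis, nt), 1 panel per library, coloured by class. All points lie above 0 in replicate 3 and all but 1, Gm25291, lie below 0 in replicate 2; the points furthest from 0 are members under 150 nt and, in replicates 1 and 2, the 214 nt entry of Rnu3a.

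Of the 41 members, 37 lay within a gene of another type on the same strand, 32 in protein-coding genes and 5 in non-coding ones. These hosts, named by position alone, were 28 genes. Of the 37, 23 lay wholly in introns of the annotated transcripts. The other 14 overlapped an annotated exon of the host, so that reads there can belong to either. For the 23 in introns, reads of the member were not told apart from those of unspliced host RNA either. The 4 without a host were Scarna2, Gm23119 and the entries of Rnu3a.

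The hosts stood in another order than their members. Of 26, 1 had the order replicate 3, then 1, then 2, against 14% of all genes. For the 26 hosts with a mean of at least 10 counts, the median deviation was -0.26 in replicate 3, -0.25 in replicate 2 and 0.42 in replicate 1. In replicate 3 none of the 26 exceeded both others 2-fold (1.55% of all genes), and in replicate 1 4 of them did (4.86% of all genes). Gm22486 had 35, 1 and 193 counts, for example, while its host Ptcd3 had 966, 667 and 473. Snord22 had 199, 19.9 and 634, while Snhg1, a non-coding RNA gene named for the snoRNAs it hosts, had 1287, 400.1 and 443. Gm25776 had 228, 28 and 917 counts and its host Gtf2a1 2001, 1812 and 2008, which were close to each other.

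As a level per kilobase of annotated length, the median member stood 0.04 log2 units below its host in replicate 1 (a log2 ratio of -0.04), at -0.68 in replicate 2 and at 1.64 in replicate 3, with a mean of 0.31 ± 1.20 (SD, n = 3). On this scale the ratio was closer to 0 than the SD of the libraries. With members of a mean of at least 50 counts it was 1.75 and in TPM 4.74, both further from 0 than that SD. This call thus changes with the count minimum and the scale. The higher minimum selects members on their own counts, which favours a higher ratio. The SD is that of all members with a host in counts per kilobase. Without replicate 3 the mean was -0.36. The range over members was far wider: 13 of 37 were above their host in every library and 9 below it in every library. The Rnu3b genes lie within Tex14, which had at most 5 counts. Leaving out U3, the mean ratio was 0.0104 ± 1.29 (SD, n = 3), and 9 of 33 were above and 9 below.

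Gm22009 stood at a mean log2 ratio of 7.12 ± 0.49 over Kpna4 and Scarna10 at 6.62 ± 0.65 over Ncapd2 (SD, n = 3 each). Scarna13 stood at 7.34 ± 0.33 over Snhg10 (SD, n = 3), but Snhg10 had 8, 5 and 10 counts in replicates 1 to 3, so this ratio rests on few host counts. The lowest were Snora81 at -7.09 ± 3.03 against Eif4a2 and Gm25791 at -4.79 ± 1.15 against Taf1d. Members of the same host could differ. In Eif4a1, Gm22988 was at 0.52 ± 1.18 and Gm25835 at -3.90 ± 2.37. In Atg16l1, Gm25395 was at 2.93 ± 0.69 and Scarna6 at 1.36 ± 0.98. The rank correlation between the counts of a member and of its host over 33 members, given as a description, was 0.06 for replicate 1, 0.06 for replicate 2 and -0.0023 for replicate 3.

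**Figure D4:**
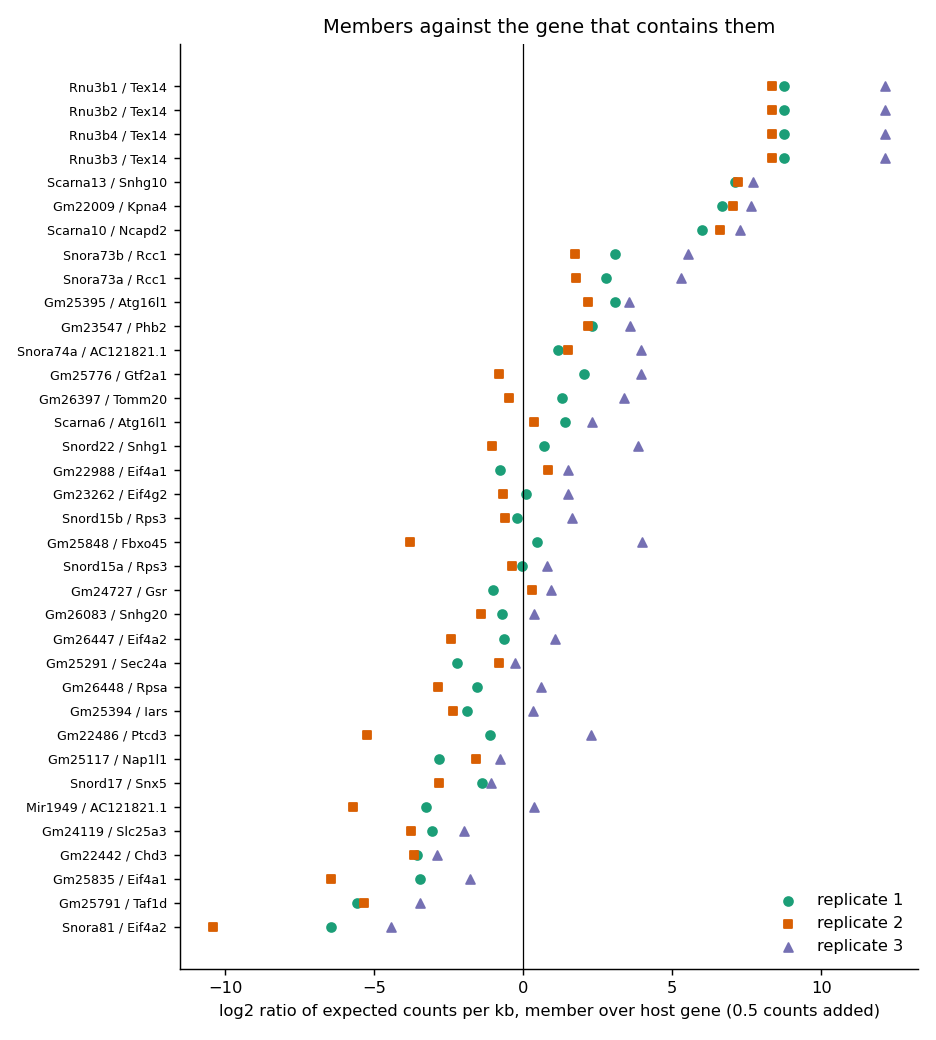
Log2 ratio of expected counts per kb of a member over its host gene (horizontal axis, 0.5 counts added to both) for 36 of the 37 members with a host (rows, highest mean at the top), 1 point per library; the line marks equal levels. The Rnu3b genes, Scarna13, Gm22009 and Scarna10 stand above 5 in every library and Snora81 below -4 in every library. Replicate 3 lies furthest right in every row.

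The tables differed from member to member. With each table scaled to its own total, the median member's log2 ratio of the second table over the gene table was -0.07, 0.56 and -0.26 in replicates 1 to 3, a mean of 0.08 ± 0.43 (SD, n = 3) that did not stand apart from 0. All 4 Scarna genes were lower in the second table in every library, with a class mean of -0.29 ± 0.15. The largest differences upward were in the 214 nt entry of Rnu3a (4.59 ± 2.75), Gm22442 (4.33 ± 0.76), Gm23119 (3.14 ± 0.99), Gm25848 (1.80 ± 2.21) and Gm25835 (1.75 ± 2.19). Downward they were in the 213 nt entry of Rnu3a (-8.35 ± 0.97), Gm22988 (-0.49 ± 0.08), Gm22009 (-0.43 ± 0.07), the Mir1949 entry (-0.40 ± 0.51) and Snord15b (-0.37 ± 0.10). The Rnu3a values belong to entries of the same locus and have opposite signs.

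The second table also had its highest values in replicate 3. On its TMM log2 CPM, 40 of the 40 members that reached the mean there were highest in replicate 3, against 30.5% of 24660 genes. Gm22009 had 14267, 21716 and 24675 estimated counts in replicates 1 to 3. Gm25835, at 4 counts in replicate 2 of the gene table, had 170, 147 and 278 estimated counts, so replicate 2 stood less far from the others there. Snord22 had 260.2, 46.1 and 787 estimated counts, and kept its low value.

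**Figure D5:**
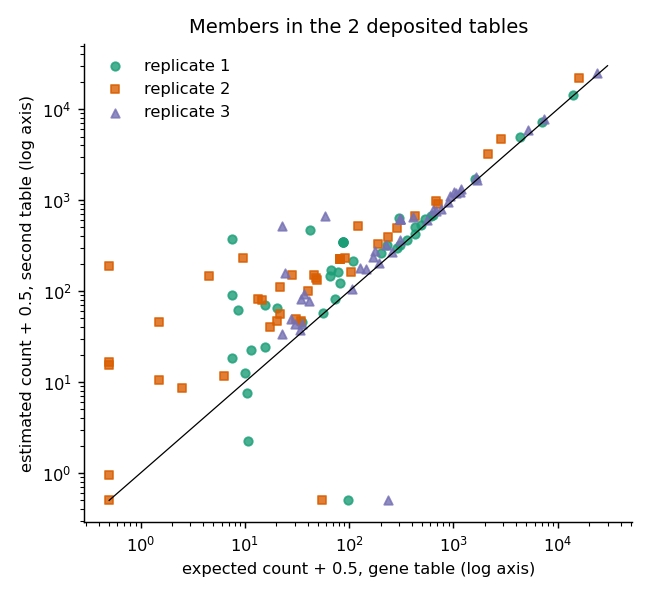
Estimated count of the second table (vertical axis) against expected count of the gene table (horizontal axis) for the 41 members, 1 point per library, both with 0.5 added and on log axes; the line marks equality. Points above 1000 counts lie near the line, and several of replicate 2 with fewer than 10 expected counts lie far above it; the 213 nt entry of Rnu3a lies at the bottom in each library, with 0 estimated counts.

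TPM was no safe scale for the shortest members. Gm26447 (129 nt) and Snord22 (126 nt) had an effective length of 0 in replicates 1 and 2, so their TPM was 0 there despite 432 and 89.8 and 199 and 19.9 counts. In replicate 3 the same genes stood at 12294 and 9892 TPM. Levels were therefore compared in counts per kilobase of annotated length. That scale leaves differences in effective length between members and between libraries in place. Gm22988 (144 nt), for example, had an effective length of 2.58, 2.25 and 6.44 in replicates 1 to 3. Levels of short members, and their ratios to hosts, therefore depend on the scale chosen.

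The genes of the proteins that carry snoRNAs had another order of libraries than the members. The core proteins of C/D particles, which are the methyltransferase Fbl and its partners Nop56, Nop58 and Snu13, had a median of 21.7, 10.1 and 8.40 TPM in replicates 1 to 3. Their median deviation was 1.22 in replicate 1, -0.68 in replicate 2 and -0.72 in replicate 3. In replicate 1, 2 of 4 exceeded both others by 2-fold or more, against 4.86% of all genes. Nop56 had 2424, 679.7 and 904 counts and Nop58 947, 273 and 273. In log2 CPM all 4 proteins' genes were highest in replicate 1, as were 36.6% of all genes, whereas all 4 C/D members were highest in replicate 3.

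The core proteins of H/ACA particles, the pseudouridine synthase Dkc1 with Nhp2, Nop10 and Gar1, had a median deviation of 0.40, 0.30 and -0.56 in replicates 1 to 3, and none of 4 was 2-fold apart. Dkc1 had 274, 386 and 211 counts. Among 13 assembly and transport factors, 1 was at least 2-fold below both others in replicate 2, against 2.22% of all genes. This was the C/D assembly factor Znhit3 with 32.5, 13 and 32 counts, and no factor was 2-fold apart in another library. Of 10 symbols listed for intron debranching and 3′ trimming, 9 were found, and none of these genes was 2-fold apart. The symbol not found, Papd5, is an earlier one of Tent4b, which was found. The debranching enzyme Dbr1 had 113, 73 and 87 counts. Of 7 Cajal body and nucleolar proteins with a mean of at least 10 counts, 1 exceeded both others 2-fold in replicate 1, against 4.86% of all genes. It was Nolc1, a nucleolar and Cajal body protein that binds snoRNA particles, with 623, 220.0 and 303 counts. Wrap53, which brings scaRNAs to Cajal bodies, had 92, 48 and 90 counts, and Coil, the coilin that marks these bodies, 92, 55 and 81.

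The cells carried macrophage markers. Over 10 markers the median was 215, 210.2 and 158 TPM in replicates 1 to 3, and none was at 0. Over 21 markers of other cell types the medians were 0.03, 0.05 and 0.04 TPM and 4 were at 0 in every library. Cd4, Pf4 and Kdr were exceptions at 21.4 ± 9.68, 110.2 ± 95.4 and 4.23 ± 0.42 TPM (SD, n = 3 each). Summed over the 21, they gave 238, 99.5 and 77.0 TPM, highest in replicate 1. Most of the sum was Pf4, at 220.2, 60.8 and 49.8 TPM in replicates 1 to 3, so this order is mainly that of Pf4. All members were highest in replicate 3 in log2 CPM, which is another scale. In TPM, the members other than Gm26447 and Snord22 made up 3.46%, 3.17% and 3.53%. Cd4, at 11.9, 31.2 and 20.9 TPM, and Kdr, at 3.81, 4.24 and 4.65 TPM, were lowest in replicate 1. The part of these markers in the members' levels was not tested.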

How the data were processed

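Total RNA depleted of ribosomal RNA from macrophage nuclei after Lipid A was sequenced by the submitters in 3 libraries of 1 group. Per the file headers and the notes deposited with each library, the authors' gene table holds expected counts, posterior mean counts, TPM and lengths on build mm10 with GENCODE M21, under column names known from RSEM. The posterior SD of a count, also deposited, was treated as a score. The second table, deposited per library under column names known from kallisto, holds estimated counts and TPM made from the reads. Program versions: not given in the sources used here. The strand setting is likewise unknown, so reads of Snora73a and Snora73b cannot be told from those of their antisense gene.

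Members, gene lists and tests were chosen with earlier results of these data known. The genes named were, by rule, the most abundant of each class, those furthest from both other libraries or between the tables, those around the count minimum, the cleavage snoRNAs and the listed proteins. Types came from the second table, and gene positions and sequences from GENCODE M21 (GRCm38). A host is the annotated gene of a kind other than small RNA that contains the member on the same strand; of several, that with the highest mean count was taken. The host of 1 member is not reported here. Identity came from global alignment with Biopython 1.88; copies share at least 75%. Expected counts were rounded, and log2 CPM with TMM factors (1.07, 1.02 and 0.921) and a prior count of 2 came from edgeR 4.0.16 over genes with a mean of at least 10, tested on simulated data. DESeq2 1.42.0 size factors, other count minimums, pseudocounts and the second table were tried as alternatives. Ratios had 0.5 counts added. With 1 group there was no contrast, so no p-values are given. Annotated genes held 18516063, 17345644 and 20947006 counts, so that 3 counts are 0.162, 0.173 and 0.143 CPM. Nothing in the labels says that the replicates came from separate animals, and their spread may be technical.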

Additional observations from a re-analysis of the deposited data

Results flagged for a closer look

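The second table, which the comparisons above use only beside the gene table, held estimated counts for genes that the gene table leaves at 0. In all, 125 annotated snoRNA and scaRNA genes had 0 expected counts in every library and a mean of at least 10 estimated counts. They were 64 to 191 nt long, 63 of them under 126 nt, and comprised 20 Snord, 5 Snora, 3 Scarna and 97 genes with other symbols. The highest was Gm24339 (76 nt, chr9:15326464-15326539, minus strand), with a mean of 407 estimated counts and 287, 279 and 655 in replicates 1 to 3. Gm23722 (130 nt) followed with a mean of 245.3 and 219, 290.0 and 227, and Gm22358 (122 nt) with a mean of 187.9 and 285, 179.9 and 98.4. Snord104 had a mean of 94.3. In CPM of that table scaled with TMM factors, Gm24339 stood at 10.3, 8.28 and 26.1 in replicates 1 to 3, Gm23722 at 7.87, 8.604 and 9.05, Gm22358 at 10.3, 5.34 and 3.92, and Snord104 at 4.71, 1.54 and 3.98. Their levels could not be checked in the gene table.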

How the results depend on the processing

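Of the alternatives tried, 211 left a value with its sign and within the spread between replicates (counts within 1.5 times), 11 moved it further and 9 reversed its sign. The median deviations in replicates 2 and 3 kept their signs in each class under every alternative run, none of which used TPM. For all members, leaving out a replicate gave -1.77 to -1.06 in replicate 2 and 1.41 to 1.77 in replicate 3. Replicate 1, close to 0, did not: its median over all members was -0.040 in the second table and -1.41 to 1.06 without a replicate. Without a replicate it ranged from -1.26 to 1.02 for C/D, -1.37 to 2.53 for H/ACA, -0.40 to 1.01 for Scarna and -1.47 to 0.83 for other symbols. The spread ranged from 0.97 to 2.81 for H/ACA and 0.28 to 0.90 for Scarna genes. Without Gm22009 the shares were 0.0305% for other symbols and 0.0963% for all members. With a mean of at least 50 counts, no member (0) was 2-fold below in replicate 1. The member over host ratio was 4.74 in TPM, 1.75 with a mean of at least 50, and -0.36 to 0.80 without a replicate; only the first 2 are further from 0 than the SD of 1.20. The choice of members that reach the minimum over replicates 1 and 2 was added after seeing the data. The ratio between tables was -0.030 with a mean of at least 50 and -0.16 to 0.25 without a replicate. In each case the cause was not tested. No paired analysis was possible because there is 1 group. Of the 5 members with no count in replicate 2, the 214 nt entry of Rnu3a had 190 estimated counts there in the second table. Gm25848 had 16, Snora81 14.8, the Mir1949 entry 0.449 and Snora68 0. Whether depth set these counts of 0 was not tested, and counts of near copies rest on the model that divided the reads.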
